A study of Mus musculus with 15 samples.

Results

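The 10 immediate early genes Fos, Fosb, Jun, Junb, Egr1, Ier2, Nr4a1, Btg2, Dusp1 and Zfp36 were followed by name in bulk RNA of mouse liver. Each matched 1 row among the 57132 gene identifiers of the count table, and all 10 were among the 18181 genes that passed the filter on low counts and were tested. The livers came from male C57BL/6J mice, an inbred laboratory strain, that were 8 weeks old at the start and were killed under anaesthesia after 18 weeks of feeding. SR9009 mice ate CDA-HFD, a high-fat diet that is deficient in choline and is used in rodents to produce steatohepatitis with fibrosis. They were injected every day by the intraperitoneal route for the last 6 weeks with 100 mg/kg of SR9009, a compound that activates REV-ERB alpha and beta, nuclear receptors that repress transcription. Vehicle mice ate the same diet and were injected daily over the same 6 weeks with the solvent, 15% Kolliphor ELP in saline. Chow mice ate standard chow for the same 18 weeks, and whether they received injections is not in the labels; in any comparison with Chow, diet and injection therefore cannot be told apart. SR9009 and Vehicle had 5 libraries each and Chow had 4, and Chow replicate 5 was not analysed here.

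Immediate early genes are switched on within minutes of a signal, without the need for new protein, and their transcripts are usually short-lived. Growth factors, stress and hormones reach them through MAP kinase and cyclic AMP cascades that act on the promoter-bound factors SRF, ELK and CREB. In liver they are known for their rapid rise after partial hepatectomy. FOS, FOSB, JUN and JUNB are subunits of the AP-1 transcription factor. EGR1 is a zinc finger transcription factor, NR4A1 an orphan nuclear receptor and IER2 a short nuclear protein. The other 3 genes encode brakes: BTG2 restrains proliferation and promotes mRNA deadenylation, DUSP1 is a phosphatase that inactivates MAP kinases, and ZFP36 (tristetraprolin) binds AU-rich elements and speeds the decay of the mRNAs that carry them.

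In SR9009 livers no member passed the test against Vehicle, although all 10 estimates lay below 0. In Vehicle livers Dusp1 and Zfp36 were lower than in Chow and the other 8 did not pass. In SR9009 livers 7 of the 10 were lower than in Chow, and 3 of those 7 calls held under every alternative tried. Values are CPM, read counts relative to a library total scaled by TMM (trimmed mean of M-values). They compare 1 gene between libraries, not genes with each other, since they are not per length. Total counts were 29950509 to 45542335 per library, so that 3 counts correspond to 0.0607 to 0.124 CPM.

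All 10 hepatocyte markers found were detected in every library, with summed levels of 70300 to 88500 CPM in SR9009, 84300 to 91700 CPM in Vehicle and 114000 to 157000 CPM in Chow. The 12 monocyte and macrophage markers summed to 2000 to 3310 CPM in SR9009, 2520 to 3700 CPM in Vehicle and 158 to 309 CPM in Chow. Between 1 and 6 of 8 striated muscle and adipocyte markers were detected in a library, and they summed to at most 6.73 CPM. Of 1985 genes for odorant, pheromone and trace amine receptors, 158 to 243 had a count in SR9009 replicates 2, 4 and 5 and Vehicle replicates 1, 2 and 3, against 50 to 113 in the other 8 libraries. In bulk RNA, fewer cells of a type and less RNA per cell cannot be told apart.

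The promoters of 4 of the genes are shown: Fos, to which the other genes are compared by pattern, Nr4a1, with the largest estimate in SR9009 against Vehicle, and Dusp1 and Zfp36, which were lower than Chow in both groups on the diet. RefSeq's table for GRCm38.p6 held 8 of the 10 promoters, from 250 bases before to 50 bases after the start, and those of Egr1 and Ier2 were not matched. Each line runs 5′ to 3′. Capitals mark TGACG or its complement CGTCA (the core of the cyclic AMP response element), the full element TGACGTCA, the TATA motif TATAAA and the CArG box that SRF recognises.
Fos (chr12:85473640-85473939, plus strand): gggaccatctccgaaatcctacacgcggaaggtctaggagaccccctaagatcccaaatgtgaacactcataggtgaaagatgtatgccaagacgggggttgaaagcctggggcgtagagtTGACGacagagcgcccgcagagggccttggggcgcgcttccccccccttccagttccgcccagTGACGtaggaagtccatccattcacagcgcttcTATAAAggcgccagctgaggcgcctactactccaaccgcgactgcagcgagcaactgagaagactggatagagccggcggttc
Nr4a1 (chr15:101266596-101266895, plus strand): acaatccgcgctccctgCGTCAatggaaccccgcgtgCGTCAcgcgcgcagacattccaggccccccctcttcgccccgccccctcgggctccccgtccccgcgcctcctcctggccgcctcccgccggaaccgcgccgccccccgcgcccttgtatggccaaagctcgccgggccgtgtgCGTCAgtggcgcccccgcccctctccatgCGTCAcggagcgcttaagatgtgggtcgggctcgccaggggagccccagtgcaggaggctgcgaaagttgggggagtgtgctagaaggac
Dusp1 (chr17:26508423-26508722, minus strand): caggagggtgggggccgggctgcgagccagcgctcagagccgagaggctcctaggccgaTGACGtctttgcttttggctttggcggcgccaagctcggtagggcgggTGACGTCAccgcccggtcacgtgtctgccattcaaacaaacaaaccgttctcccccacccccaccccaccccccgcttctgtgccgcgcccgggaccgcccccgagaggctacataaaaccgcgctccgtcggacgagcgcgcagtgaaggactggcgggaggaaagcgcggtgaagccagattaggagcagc
Zfp36 (chr7:28379179-28379478, minus strand): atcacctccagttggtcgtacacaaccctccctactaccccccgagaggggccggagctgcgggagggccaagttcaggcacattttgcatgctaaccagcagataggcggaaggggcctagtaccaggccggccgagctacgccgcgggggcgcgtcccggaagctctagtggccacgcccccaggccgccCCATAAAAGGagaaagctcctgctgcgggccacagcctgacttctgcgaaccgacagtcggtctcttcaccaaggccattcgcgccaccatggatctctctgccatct

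The core TGACG, searched on both strands, was present in 6 of the 8 promoters (Fos, Fosb, Junb, Nr4a1, Btg2 and Dusp1), against 20.8% of 32851 promoters of the same length. Nr4a1 held 4 copies and Fos held 2. The full element TGACGTCA, each copy of which holds the core on both strands, was found in Btg2 and Dusp1, and in 1.79% of all promoters. In Dusp1 it began at position -143 from the start. The TATA motif, searched on the sense strand, occurred in 2 of the 8, against 8.32% of all. It began at position -33 in the Fos promoter, and in that of Junb at position 1, the start itself and not before it. A CArG box was found only in Zfp36 among the 8, and in 1.63% of all promoters. The AP-1 site TGANTCA and the EGR site GCGTGGGCG, on both strands, were in none of the 8 windows, against 7.81% and 0.612% of all. The ETS site CCGGAA was in 2 of the 8, Nr4a1 and Zfp36, against 14.9% of all promoters, and the SP1 site GGGCGG was in 7 of the 8, against 35.7%. The GC content of the 8 ran from 58.7% (Fos) to 72.3% (Nr4a1), against a median of 52.7% over all promoters. The motif shares were not adjusted for GC content. These are matches of letters in a window and not measured binding. Sequence further than 250 bases before the start was not searched, so a motif that is absent here may lie outside the window.

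In the GENCODE M21 models of GRCm38, the 10 genes had a median of 2 exons and a median span of 4.1 kb, against 9 exons and 24.2 kb over 14494 tested genes with an annotated 3′ untranslated region. Exons were counted in the longest coding transcript, while the span is that of the whole gene record. The records of Dusp1 and Nr4a1 were longer, at 56.5 and 20.5 kb, and that of Dusp1 spanned at least as much as 74.6% of those genes. The longest coding transcript of Dusp1 had 1990 bases in 4 exons. The AU-rich pentamer ATTTA, which is part of the elements that ZFP36 binds, occurred at a median of 3.56 copies per kb of 3′ untranslated region in the 10 genes and 1.25 in those 14494. The longer form TATTTAT was present in 6 of the 10 and in 29.4% of the 14494. Dusp1 and Zfp36 held 3 copies each, while Junb, Egr1, Ier2 and Nr4a1 held 0.

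**Figure D1:**
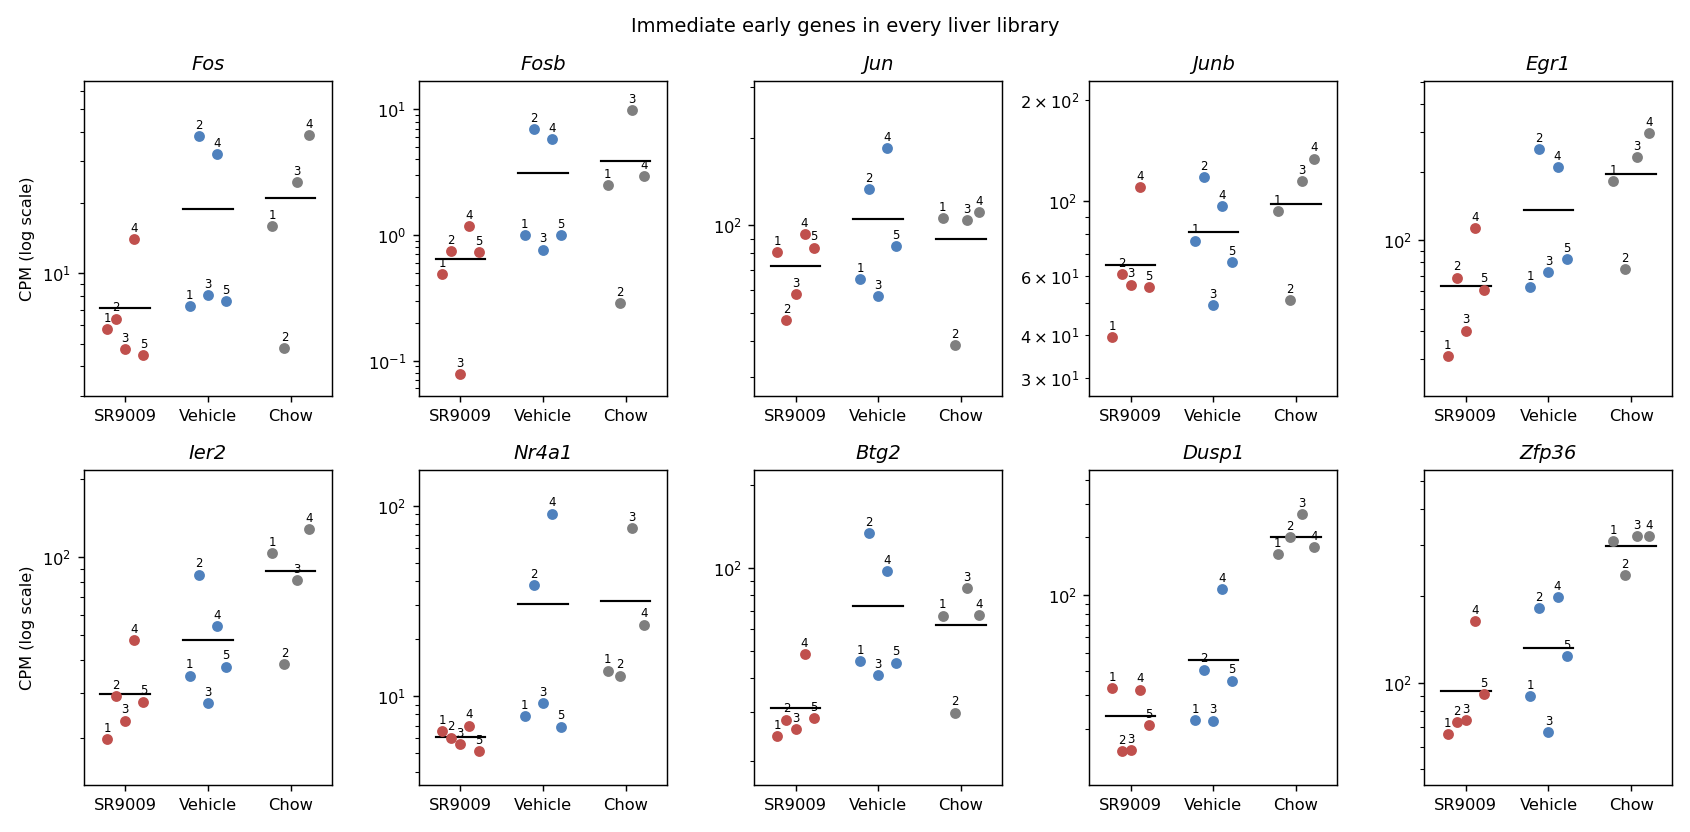
CPM (log scale, a separate axis for each gene) of the 10 immediate early genes in 5 SR9009, 5 Vehicle and 4 Chow liver libraries; each point is a library with its replicate number, and the bar is the group mean. Vehicle replicates 2 and 4 stand above the other Vehicle libraries for every gene, and Dusp1 and Zfp36 are higher in all 4 Chow libraries than in any other library.

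The comparison of SR9009 with Vehicle asks what the REV-ERB agonist changed in livers of mice on the diet. The sample records used here give the Kolliphor content for the Vehicle injections only. Nr4a1 (ENSMUSG00000023034.8) had the largest difference of the 10. It stood at 6.57, 6.05, 5.59, 7.0 and 5.12 CPM in SR9009 replicates 1 to 5. In Vehicle replicates 1 to 5 it stood at 7.87, 38.3, 9.17, 90.7 and 6.90 CPM. The SR9009 libraries lay close together, and the 3 lower Vehicle libraries lay just above or within their range, so that the groups overlapped by a narrow margin. The mean was 6.07 ± 0.751 CPM in SR9009 and 30.6 ± 36.1 CPM in Vehicle (SD, n = 5 each), a log2 fold change of -2.33 ± 0.78 (SE; edgeR quasi-likelihood test, Benjamini-Hochberg adjusted p = 0.412).

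Btg2 (ENSMUSG00000020423.7) came nearest to the threshold. Its level was 24.5, 28.2, 26.0, 48.6 and 28.5 CPM in SR9009 replicates 1 to 5. In Vehicle replicates 1 to 5 it was 46.0, 134, 40.8, 97.6 and 45.4 CPM. SR9009 replicate 4 was the only SR9009 library above the lowest Vehicle library. The log2 fold change was -1.22 ± 0.38 (SE; edgeR quasi-likelihood test, adjusted p = 0.345).

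Fos (ENSMUSG00000021250.14) stood at 5.77, 6.4, 4.73, 14 and 4.48 CPM in SR9009 replicates 1 to 5. In Vehicle replicates 1 to 5 it stood at 7.23, 38.6, 8.07, 32.2 and 7.62 CPM. Without SR9009 replicate 4 every SR9009 value would lie below every Vehicle value. The log2 fold change was -1.40 ± 0.65 (SE; edgeR adjusted p = 0.685). Fosb (ENSMUSG00000003545.4), the second Fos family subunit of AP-1 in the set, was at 0.488, 0.747, 0.078, 1.17 and 0.734 CPM in SR9009 replicates 1 to 5. Its Vehicle values were 1.0, 6.92, 0.766, 5.81 and 1.0 CPM. The lowest of these values, in SR9009 replicate 3, rests on 3 counts, and again SR9009 replicate 4 lay within the Vehicle range. The log2 fold change of Fosb was -2.25 ± 0.89 (SE; edgeR adjusted p = 0.563).

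Egr1 (ENSMUSG00000038418.9) was at 30.8, 68.5, 40.0, 113 and 60.7 CPM in SR9009 replicates 1 to 5. In Vehicle replicates 1 to 5 it was at 62.1, 252, 72.7, 211 and 82.5 CPM. Vehicle replicates 2 and 4 again stood apart from the rest, and the groups overlapped. Its log2 fold change was -1.12 ± 0.51 (SE; edgeR adjusted p = 0.672). Dusp1 (ENSMUSG00000024190.8), the MAP kinase phosphatase, was at 32.6, 15.3, 15.5, 32.1 and 20.9 CPM in SR9009 replicates 1 to 5. In Vehicle it was at 22.2, 40.8, 22.1, 107 and 35.7 CPM. Here only Vehicle replicate 4 stood far above the rest, and the log2 fold change was -0.97 ± 0.42 (SE; edgeR adjusted p = 0.637).

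The 4 remaining genes differed less, with overlapping groups. Zfp36 (ENSMUSG00000044786.7) stood at 66.2, 72.8, 74.1, 164 and 91.0 CPM in SR9009, against 89.9, 181, 67.4, 198 and 124 CPM in Vehicle replicates 1 to 5. Ier2 (ENSMUSG00000053560.6) stood at 19.8, 29.0, 23.4, 47.9 and 27.7 CPM in SR9009, against 34.9, 85.7, 27.3, 54.3 and 37.8 CPM in Vehicle. The Jun family subunits overlapped as well: Jun (ENSMUSG00000052684.6) ranged over 47.0 to 93.5 CPM in SR9009 and 56.9 to 185 CPM in Vehicle, and Junb (ENSMUSG00000052837.8) over 39.6 to 110 CPM in SR9009 and 49.3 to 118 CPM in Vehicle. The 4 log2 fold changes were -0.49 for Zfp36, -0.70 for Ier2, -0.53 for Jun and -0.33 for Junb, with edgeR adjusted p between 0.758 and 0.917.

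By the edgeR quasi-likelihood test with Benjamini-Hochberg adjustment 0 of the 10 were called, against 0.077% of all tested genes called lower in SR9009 and 0.242% called in either direction. DESeq2 and limma-voom also called 0 of the 10. At an unadjusted edgeR p under 0.05, 5 of the 10 were lower (Fosb, Egr1, Nr4a1, Btg2 and Dusp1), against 3.37% of all tested genes. The median log2 fold change of the 10 was -1.05, against 0 over all tested genes. The 10 genes were chosen with earlier results of these data known. They also moved together by library, and Vehicle replicates 2 and 4 were the top pair of Vehicle for all 10. The 10 estimates are therefore not independent of each other or of that choice. The 95% interval of Nr4a1 ran from -4.04 to -0.63 and that of Fos from -2.81 to 0, so these libraries do not exclude differences of several fold for either. Leaving out any library in turn, all 10 estimates stayed below 0 and none was called.

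Neutrophil markers were set beside these values because their estimates were below 0 as well, for all 7 that were tested. By edgeR 0 of the 7 passed, also at an unadjusted p under 0.05. The 8 markers summed to 17.8 to 27.2 CPM in SR9009. In Vehicle replicates 1 to 5 they summed to 41.4, 107, 19.6, 15.7 and 20.2 CPM. Of the 2 Vehicle libraries with high immediate early genes, replicate 2 thus had the highest neutrophil sum of the group and replicate 4 the lowest. The receptor gene count was 160 in replicate 2 and 63 in replicate 4, and 241, 243 and 82 in Vehicle replicates 1, 3 and 5. The part of neutrophil RNA in the result was not tested, nor was that of the receptor gene count in those 2 libraries.

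**Figure D2:**
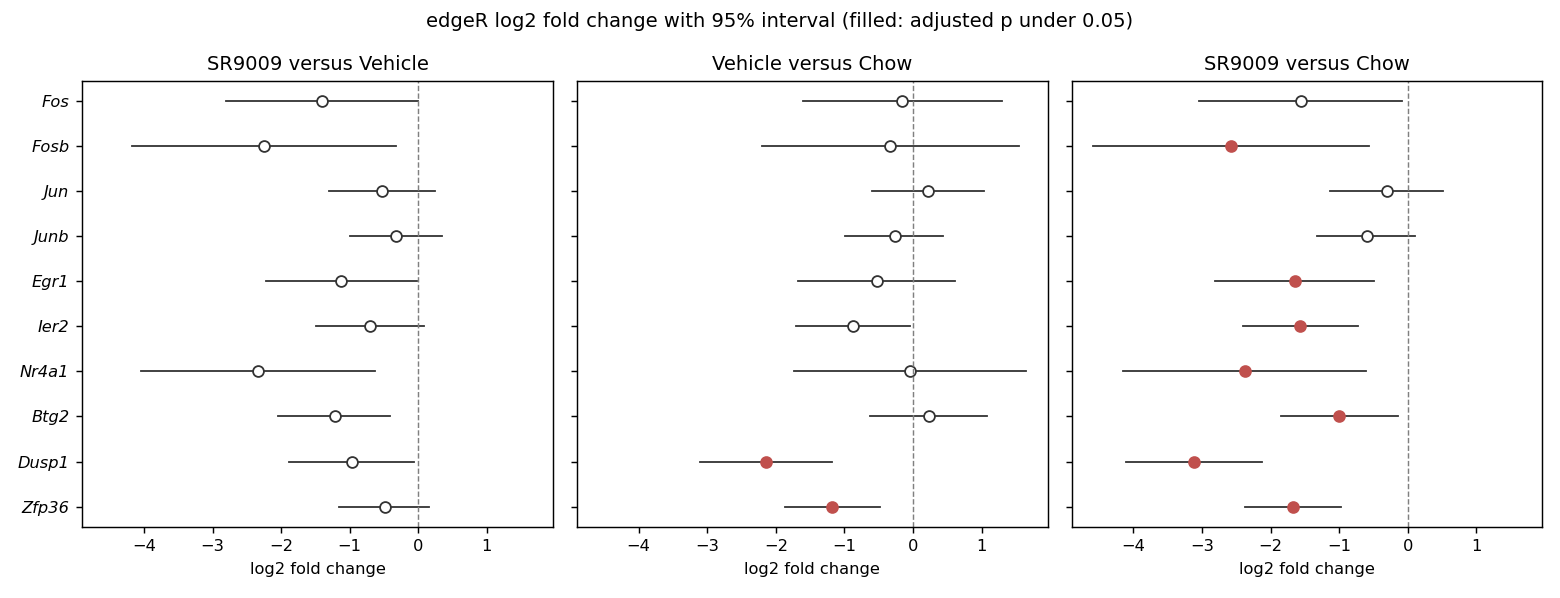
edgeR log2 fold change (x axis) of each immediate early gene with its 95% interval in the 3 comparisons; filled points have an adjusted p under 0.05. All 10 estimates lie below 0 in SR9009 versus Vehicle but none is filled, Dusp1 and Zfp36 are filled in Vehicle versus Chow, and 7 genes are filled in SR9009 versus Chow.

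The comparison of Vehicle with Chow asks what the diet together with the solvent injections changed. Dusp1 and Zfp36 were lower in Vehicle, while the groups overlapped for the other 8 genes. Among these was Btg2, the third brake of the set, at 72.8 CPM in Vehicle, against 62.3 CPM in Chow (log2 fold change 0.23). Dusp1 stood at 22.2, 40.8, 22.1, 107 and 35.7 CPM in Vehicle replicates 1 to 5. In Chow replicates 1 to 4 it stood at 163, 201, 265 and 178 CPM. The lowest Chow library exceeded the highest Vehicle library. Dusp1 averaged 45.7 ± 35.5 CPM in Vehicle (SD, n = 5) and 202 ± 44.9 CPM in Chow (SD, n = 4) and was 4.41-fold lower in Vehicle (log2 fold change -2.14 ± 0.44 SE, edgeR adjusted p = 0.00113). Zfp36 stood at 311, 237, 323 and 322 CPM in Chow replicates 1 to 4, all above the Vehicle maximum of 198 CPM. It averaged 132 ± 56.5 CPM in Vehicle against 298 ± 41.4 CPM in Chow and was 2.26-fold lower in Vehicle (log2 fold change -1.18 ± 0.32 SE, edgeR adjusted p = 0.00665).

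These 2 of 10 calls compare with 25.4% of all tested genes called lower and 55.2% called in either direction in Vehicle versus Chow. For 2 of the 10 the libraries did not overlap, with Vehicle below, against 20.7% of all tested genes. Both shares are near those of the transcriptome as a whole. Both calls held in all 14 fits that left out a library. With raw library totals in place of TMM, which moved the median of all genes to 0.50, Dusp1 remained lower (log2 fold change -1.67, edgeR adjusted p = 0.00452), while Zfp36 was at -0.69 with an adjusted p of 0.0703.

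Among the other 8, Ier2 came nearest to the threshold. It was at 104, 38.7, 81.6 and 128 CPM in Chow replicates 1 to 4, against the Vehicle values given above. The lowest Chow library lay within the Vehicle range, and the log2 fold change was -0.87 ± 0.38 (SE; edgeR adjusted p = 0.0702). It was called by limma-voom (adjusted p = 0.0374), without Vehicle replicate 2 and without Chow replicate 2, and adjusted p ranged over 0.0144 to 0.217 in the 14 fits that left out a library. Fos averaged 18.8 ± 15.4 CPM in Vehicle and 21.0 ± 14.4 CPM in Chow, and Nr4a1 30.6 ± 36.1 CPM in Vehicle and 31.6 ± 30.1 CPM in Chow (SD, n = 5 and n = 4). Their log2 fold changes were -0.16 (95% interval -1.61 to 1.29) and -0.05 (-1.74 to 1.65), intervals that leave room for a change of several fold either way. The sign of Fos, Fosb, Jun, Nr4a1 and Btg2 depended on which library was left out. In Fosb, Jun, Junb, Egr1 and Btg2 the log2 fold changes lay between -0.53 and 0.23, with edgeR adjusted p between 0.415 and 0.769.

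SR9009 and Chow differ by diet, injections and compound together, and this comparison uses the SR9009 and Chow libraries of the other comparisons. Dusp1 and Zfp36 again did not overlap between the groups. Dusp1 was 8.66-fold lower in SR9009, at 23.3 ± 8.58 CPM against 202 ± 44.9 CPM in Chow (log2 fold change -3.11 ± 0.46 SE, edgeR adjusted p = 7.47e-05). Zfp36 was 3.18-fold lower, at 93.7 ± 40.6 CPM against 298 ± 41.4 CPM (log2 fold change -1.67 ± 0.32 SE, edgeR adjusted p = 0.000572). Ier2 was 2.97-fold lower, at 29.6 ± 10.9 CPM against 88.0 ± 38.0 CPM (log2 fold change -1.57 ± 0.39 SE, edgeR adjusted p = 0.00369), with SR9009 replicate 4 above the lowest Chow library. These 3 calls held in all 14 fits that left out a library and under the other 9 alternatives.

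The other 4 calls depended on single libraries or on the settings. Egr1 was at 182, 74.8, 234 and 297 CPM in Chow replicates 1 to 4 and averaged 62.6 ± 32.0 CPM in SR9009 (log2 fold change -1.65 ± 0.53 SE, edgeR adjusted p = 0.0186). It lost its call without Chow replicate 4 and with raw library totals, where adjusted p was 0.0598 and 0.0679. Nr4a1 was at 13.6, 12.8, 76.2 and 23.7 CPM in Chow, above the SR9009 maximum of 7.0 CPM in every library (log2 fold change -2.38 ± 0.81 SE, edgeR adjusted p = 0.0247). That call was lost without SR9009 replicate 2, without Chow replicate 3 and under 4 of the other 9 alternatives. Fosb was at 2.49, 0.286, 9.90 and 2.93 CPM in Chow (log2 fold change -2.58 ± 0.93 SE, edgeR adjusted p = 0.0306), and Btg2 was at 67.3, 29.9, 84.4 and 67.5 CPM in Chow (-1.0 ± 0.39 SE, adjusted p = 0.0458). In both, the lowest Chow value, that of replicate 2, lay among the SR9009 values. Fosb kept its call in 9 and Btg2 in 7 of the 14 fits without a library: both lost it without SR9009 replicate 1, 2, 3 or 5 or Chow replicate 3, and Btg2 also without Chow replicate 1 or 4. Under the other 9 alternatives Fosb and Btg2 were each called in 4.

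Fos was at 15.9, 4.78, 24.5 and 38.9 CPM in Chow replicates 1 to 4 and did not pass against SR9009 (log2 fold change -1.56 ± 0.68 SE, edgeR adjusted p = 0.0676). Fos was called by DESeq2 (adjusted p = 0.0359) and by edgeR on the SR9009 and Chow libraries alone (adjusted p = 0.045). Fos and Junb were called when SR9009 replicate 4 or Chow replicate 2 was left out. Jun, at 106, 38.6, 104 and 111 CPM in Chow, and Junb, at 93.7, 50.9, 115 and 134 CPM, had log2 fold changes of -0.31 and -0.60 (edgeR adjusted p = 0.509 and 0.136). In all, 7 of 10 were called lower, against 25.7% of all tested genes lower and 56.2% called in either direction in SR9009 versus Chow. The libraries of 3 of the 10 (Nr4a1, Dusp1 and Zfp36) did not overlap, with SR9009 below, against 21% of all tested genes. Without SR9009 replicate 2 or without Chow replicate 3 the calls numbered 4, and without SR9009 replicate 4 or Chow replicate 2 they numbered 9.

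**Figure D3:**
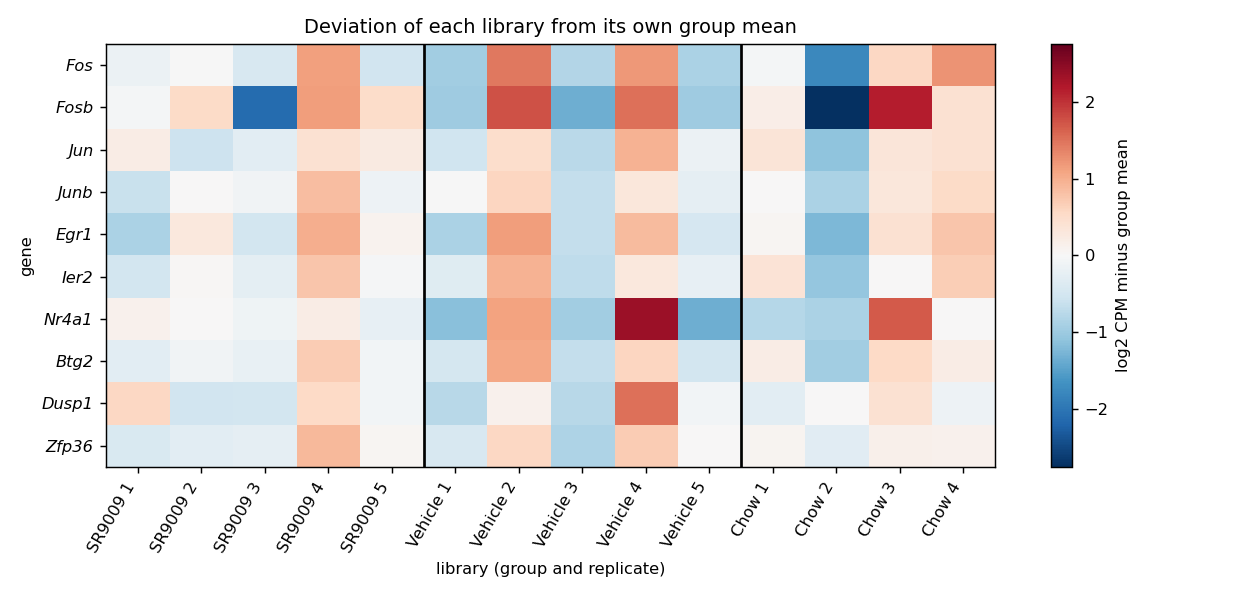
Deviation of each library from its own group mean (colour, log2 CPM) for the 10 immediate early genes, with SR9009, Vehicle and Chow libraries side by side. Vehicle replicates 2 and 4 and SR9009 replicate 4 are above their group mean for all 10 genes, as is Chow replicate 3, and Chow replicate 2 is below for 9.

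Within each group the 10 genes moved with the library. Vehicle replicates 2 and 4 were the top pair of their group for all 10 genes, replicate 2 being highest for 6 and replicate 4 for 4. Their mean deviations from the group mean were 0.92 and 1.03 on the log2 scale, against -0.66, -0.81 and -0.49 for Vehicle replicates 1, 3 and 5. SR9009 replicate 4 was the highest of its group for 9 of 10 genes, with a mean deviation of 0.76. Chow replicate 2 was the lowest of its group for 9 of 10, with a mean deviation of -1.09, and Chow replicate 3 lay above the group mean for all 10, with a mean deviation of 0.66. The exception for Chow replicate 2 was Dusp1, whose 201 CPM in replicate 2 was the second-highest Chow value.

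Some other measures of SR9009 replicate 4 and Chow replicate 2 were read beside these values. SR9009 replicate 4 had 179 receptor genes with a count, similar to the 177 of SR9009 replicate 2, whose mean deviation was -0.06. Macrophage markers summed to 3310 CPM in both. Chow replicate 2 had the highest mean log2 CPM over the 10 heat shock genes, 6.11 against 5.20 to 5.58 in the other Chow libraries. Mitochondrial transcripts took 5.60% of its counts, within the 5.16% to 6.22% of the group. The part of heat shock expression in the low values of Chow replicate 2 was not tested.

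Fos, Egr1, Btg2, Ier2 and Junb followed each other most closely. Over the 14 libraries, with group means removed, the Pearson correlation of log2 CPM between pairs of the 10 genes ranged from 0.30 to 0.94 with a median of 0.77 over 45 pairs. These values share libraries and scaling and are a description. Fos was at 0.93 with Egr1, 0.93 with Btg2 and 0.90 with Ier2, and Junb at 0.94 with Ier2. Dusp1 was the least tied to the set: it was at 0.30 with Ier2, 0.32 with Junb and 0.53 with Fos, and at 0.76 with Nr4a1. Nr4a1 itself was at 0.75 with Fos and 0.49 with Ier2. Nr4a1, Dusp1, Jun and Zfp36 reached their highest diet-fed value in Vehicle replicate 4, whereas Ier2, Junb, Egr1, Fos, Fosb and Btg2 were highest in Vehicle replicate 2.

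**Figure D4:**
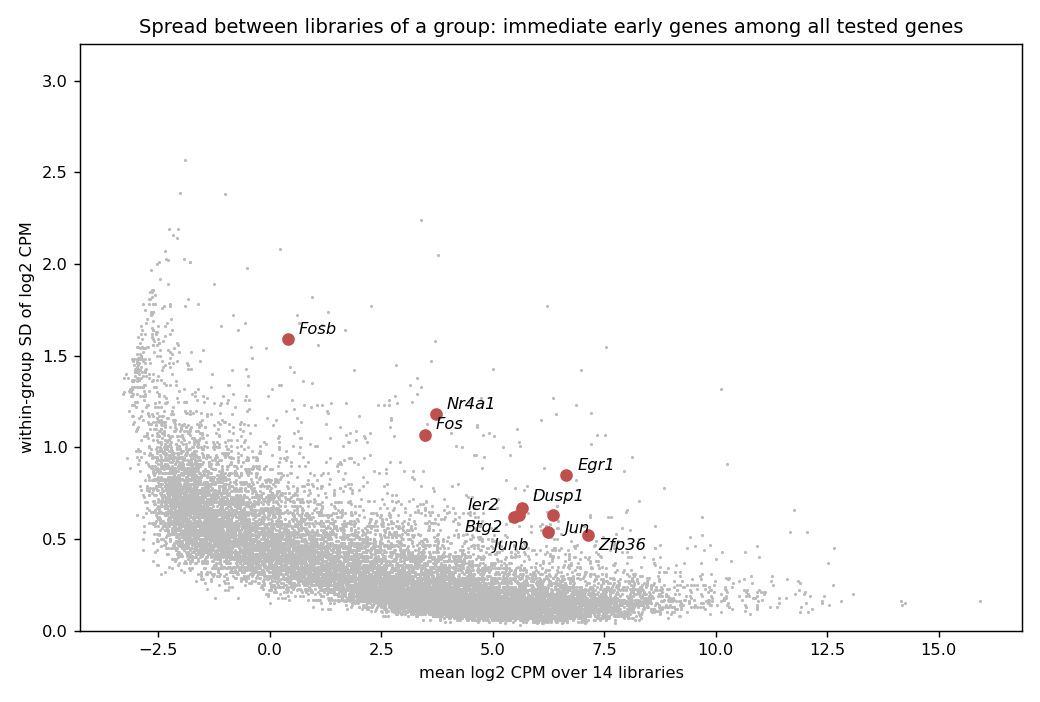
Within-group SD of log2 CPM (y axis) against mean log2 CPM over 14 libraries (x axis) for all 18181 tested genes (grey) and the 10 immediate early genes (red, named). The 10 genes have SDs of 0.52 to 1.59 and lie along the upper edge of the cloud at their level.

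The spread between libraries of a group was wide for all 10. The within-group SD of log2 CPM was 1.59 for Fosb, 1.18 for Nr4a1 and 1.07 for Fos, and 0.52 for Zfp36 at the other end, against a median of 0.27 over all tested genes. Among the genes nearest to each in mean level, the 10 lay at percentiles 97.2 to 99.8. The spread was not even across groups. Nr4a1 had an SD of 0.18 in SR9009, 1.65 in Vehicle and 1.19 in Chow, at percentiles 38.9, 99 and 97.2 of all tested genes in those groups. In Chow the SD was 0.31 for Dusp1 and 0.22 for Zfp36, at percentiles 58.2 and 46.2, while the other 8 ranged from 0.61 for Junb to 2.03 for Fosb. Differences in spread between groups were not tested. The labels do not give the time of day of collection, and its part in these values was not tested.

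Relatives of the 10 genes were read in the same fit, and differences between lists were not tested. Markers of some other liver cells stood higher in Vehicle than in Chow. Those of stellate cells summed to 1100 to 1480 CPM in Vehicle and 233 to 339 CPM in Chow. Those of cholangiocytes summed to 415 to 984 CPM in Vehicle and 50.3 to 84.9 CPM in Chow, beside the macrophage sums above. Resident Kupffer cell markers did not, at 415 to 655 CPM in Vehicle and 587 to 897 CPM in Chow. Liver endothelial markers overlapped, at 289 to 465 CPM in Vehicle and 294 to 371 CPM in Chow. All 10 stellate, 7 cholangiocyte and 12 macrophage markers were detected in every library. Spp1 is in both the cholangiocyte and the macrophage list, so those sums are not independent. The part of these cells in the list values was not tested. Among 8 other tested AP-1 and related bZIP factors of 9 listed, 5 rose in Vehicle and 0 fell by edgeR, and 0 were lower at an unadjusted p under 0.05, by DESeq2 or by limma-voom. Their median was 1.24 on the log2 scale, against 0.02 over all tested genes, of which 29.8% were called higher. Atf3, a stress-induced repressor of the ATF family, was at 34.8, 52.9, 37.6, 53.7 and 35.3 CPM in Vehicle replicates 1 to 5. In Chow replicates 1 to 4 it was at 3.09, 1.72, 11.4 and 2.68 CPM. No library overlapped, and Atf3 was 9.05-fold higher in Vehicle (log2 fold change 3.18 ± 0.44 SE, edgeR adjusted p = 4e-05). Fosl2, the Fos-related subunit FRA-2, was 2.60-fold higher, and the small MAF factors Maff and Mafk were 3.33-fold and 2.16-fold higher. Fosl1, the other FRA subunit, did not pass the filter, with 0 to 14 counts per library.

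Among 10 tested EGR, NR4A and Kruppel-like factors and EGR corepressors of 11 listed, 5 rose in Vehicle and 0 fell by edgeR, 1 being lower at an unadjusted p under 0.05 and 1 called lower by DESeq2. Their median was 1.08 on the log2 scale, against 0.02 over all tested genes, of which 29.8% were called higher and 25.4% lower. Egr2, a zinc finger factor of the family of Egr1, was at 8.55, 7.22, 8.38, 7.53 and 8.41 CPM in Vehicle replicates 1 to 5, against 0.175, 0.0573, 0 and 0.247 CPM in Chow replicates 1 to 4. Egr2 was thus even across the Vehicle libraries, where Egr1 varied 4.06-fold, and its log2 fold change was 6.13 ± 0.36 (SE; edgeR adjusted p = 3.42e-09), resting on at most 6 counts in any Chow library. Nr4a3 and Egr3 averaged 1.30 and 1.28 CPM in Vehicle and 0.0741 CPM each in Chow, where no library held over 4 counts of either. Nr4a2 was at 1.17 CPM in Vehicle, against 1.29 CPM in Chow, and did not pass (edgeR adjusted p = 0.783). Klf6, a Kruppel-like factor, was 6.49-fold higher in Vehicle, and Egr4 had 0 counts in all 14 libraries.

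Of 33 other early response genes, 17 rose and 5 fell in Vehicle against Chow, and the median was 0.56 on the log2 scale. Over all tested genes 29.8% were called higher and 25.4% lower. Ier3 and Ier5, early response genes like Ier2, were 12.7-fold and 4.06-fold higher, and the growth arrest gene Gadd45b was 9.26-fold higher. Rhob, a small GTPase, was 2.83-fold higher. The 5 that fell, chosen here after their values were seen, were Errfi1 (log2 fold change -1.14), a feedback inhibitor of the EGF receptor, Csrnp1 (-1.03), Trib1 (-0.75), Pim1 (-1.34), a serine/threonine kinase, and Zfp36l1 (-0.66), a paralogue of Zfp36. Zfp36l1 averaged 233 CPM in Vehicle and 368 CPM in Chow, while Zfp36l2, the third of these mRNA decay factors, rose to 85.8 CPM in Vehicle against 61.8 CPM in Chow. With raw library totals Errfi1 and Pim1 remained lower, while Csrnp1 (-0.56, edgeR adjusted p = 0.0785), Trib1 (-0.27, edgeR adjusted p = 0.2) and Zfp36l1 (-0.17, edgeR adjusted p = 0.27) did not pass, so the fall of these 3 depended on the scaling.

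Of 12 MAP kinase phosphatases and feedback inhibitors other than Dusp1, 9 rose and 2 fell, and the median was 0.89 on the log2 scale. The shares of all tested genes were 29.8% higher and 25.4% lower. Dusp2 and Dusp5, nuclear phosphatases of MAP kinases, were 9.26-fold and 8.15-fold higher in Vehicle, at 1.92 and 5.45 CPM against 0.208 and 0.676 CPM in Chow. Spry2, an inhibitor of receptor tyrosine kinase signalling, was 3.19-fold higher and Spry4, a relative of it, 3.44-fold lower (log2 fold change -1.78 ± 0.17 SE, edgeR adjusted p = 3.34e-07). Dusp1 thus fell in livers in which 6 genes of the list, all among the 9 that rose, had log2 fold changes above 1.

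Of 21 kinases and factors upstream of the immediate early genes, 7 rose and 8 fell with TMM, while 15 rose and 0 fell with raw library totals. Of all tested genes 29.8% were higher and 25.4% lower with TMM, and 57.1% higher and 7.58% lower with raw totals. Mapk3, encoding ERK1, rose under both, by 0.98 with TMM. Srf did not pass with TMM, at 20.7 CPM in Vehicle, against 18.2 CPM in Chow (edgeR adjusted p = 0.181). Of 10 heat shock genes, 1 rose and 6 fell with TMM, and 3 rose and 2 fell with raw totals. Hsph1 was lower under both, at 28.3 CPM in Vehicle, against 95.4 CPM in Chow (log2 fold change -1.76 ± 0.21 SE, edgeR adjusted p = 6.88e-06), and so was Hsp90aa1. Hspa1a, an inducible HSP70 gene, was at 1.13 CPM in Vehicle, against 0.212 CPM in Chow. Scaling moved the other lists in the same direction: with raw totals 8 and 0 AP-1 factors, 7 and 0 EGR, NR4A and Kruppel-like genes, 24 and 2 early response genes and 9 and 1 feedback inhibitors were higher and lower in Vehicle.

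**Figure D5:**
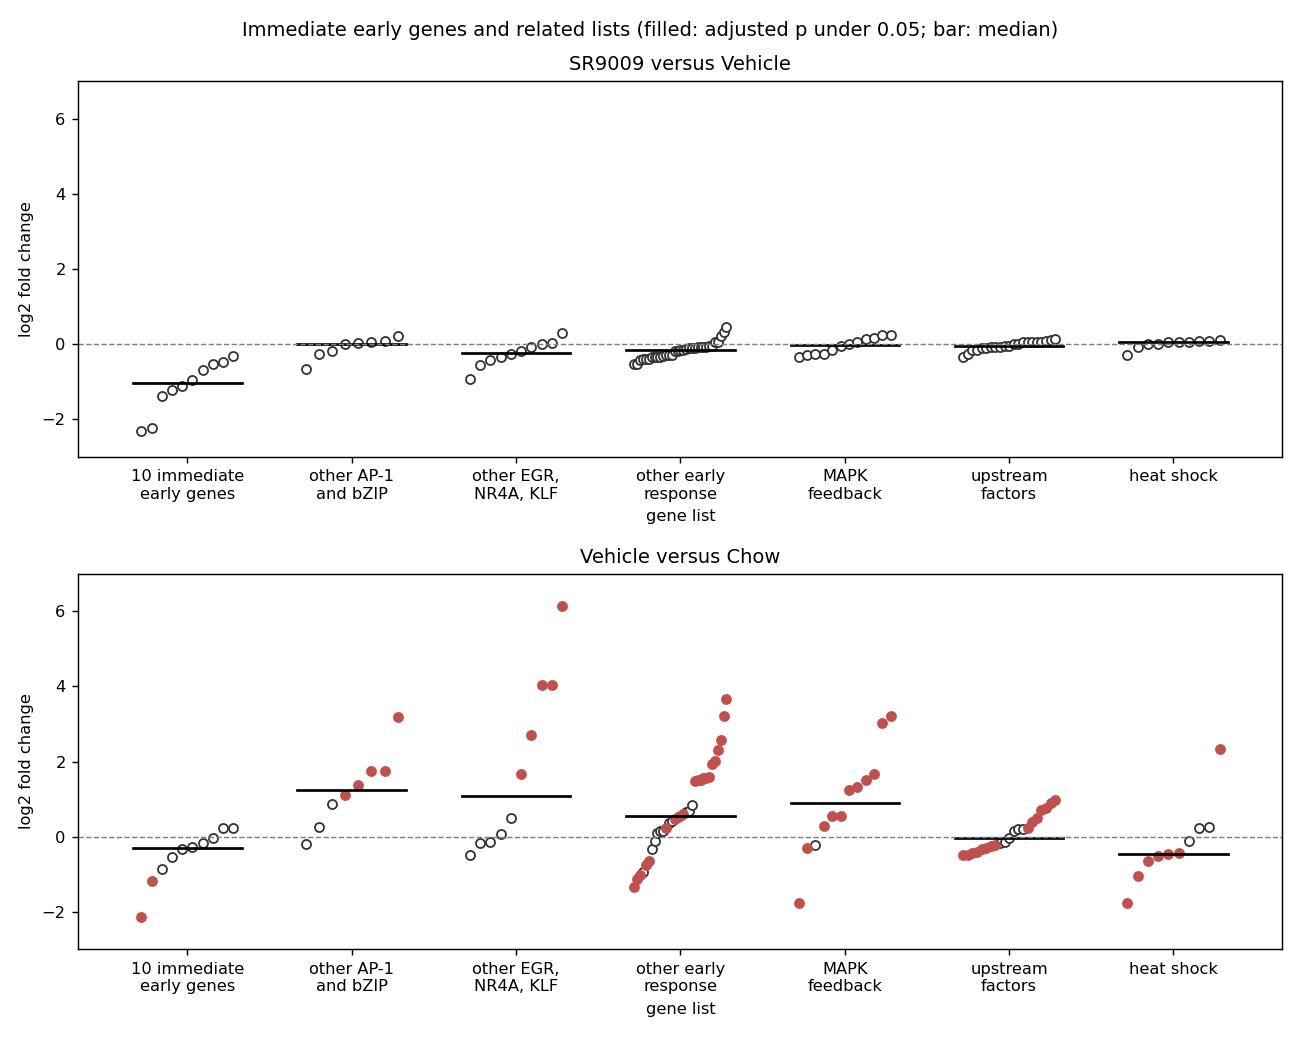
edgeR log2 fold change (y axis) of each tested gene in the 10 immediate early genes and 6 related lists, in SR9009 versus Vehicle (top) and Vehicle versus Chow (bottom); filled points have an adjusted p under 0.05 and bars are medians. In the top panel no point is filled and the median of the 10 genes is -1.05, against -0.24 to 0.04 in the related lists; in the bottom panel many related genes are filled above 0.

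In SR9009 against Vehicle, 0 of the tested genes of these 6 lists were called by edgeR, and the list medians lay between -0.24 and 0.04. At an unadjusted p under 0.05, 1 gene of the AP-1 list, 1 of the EGR, NR4A and Kruppel-like list, 3 early response genes, 1 feedback inhibitor, 3 upstream genes and 0 heat shock genes were lower. The share over all tested genes was 3.37%. DESeq2 and limma-voom each called 1 gene lower, Ier5. It stood at 18.3, 21.8, 18.4, 20.1 and 16.7 CPM in SR9009, against 29.3, 29.3, 28.8, 25.1 and 26.4 CPM in Vehicle replicates 1 to 5. The groups did not overlap, but the edgeR adjusted p was 0.202 (log2 fold change -0.54 ± 0.14 SE). Atf3 and Fosl2 also lay lower in every SR9009 library than in any Vehicle library, at 27.0 and 22.7 CPM on average in SR9009 against 42.9 and 27.4 CPM in Vehicle, with edgeR adjusted p of 0.77 and 0.468. Against 0.979% of all tested genes whose SR9009 libraries lay below without overlap, the AP-1 list held 2 of 8, the early response list 1 of 33, the upstream list 1 of 21 (Mrtfb, a cofactor of SRF) and the other 3 lists and the 10 immediate early genes 0.

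In SR9009 against Chow the related lists were called in similar numbers to Vehicle against Chow, with the same Chow libraries in both. There 30.5% of all tested genes were called higher and 25.7% lower. In the AP-1 list 6 rose and 0 fell by edgeR (0 at an unadjusted p under 0.05, by DESeq2 or by limma-voom). Of the EGR, NR4A and Kruppel-like list 5 rose and 2 fell. Of the early response genes 17 rose and 6 fell, and of the feedback inhibitors 8 rose and 2 fell. The upstream list had 6 and 7, and the heat shock list 1 and 6. Klf6 averaged 61.9 CPM in SR9009 against 9.99 CPM in Chow, and Gadd45b 12.5 CPM in SR9009 against 1.47 CPM in Chow. The 10 immediate early genes had a median log2 fold change of -1.61 there, against 1.10 in the AP-1 list and 0.02 over all tested genes.

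Outside the set, the genes whose group-centred pattern was most like that of Fos over the 14 libraries were few. Of all 18181 tested genes 23 (0.127%) had a Pearson r of 0.8 or more with Fos, and 6 of them were among the 9 other immediate early genes. Among genes with a mean of at least 1 CPM and a full symbol, Ccdc88c (0.94), Ccn1 (0.87), Midn (0.86), Trim13 (0.85), Ptbp1 (0.84) and Rybp (0.84) headed the list, before Kansl1l, Edc4, Mxd1 and Srrm4. Ccn1, which encodes a matricellular protein and is itself an early response gene, was at 34.2, 31.7, 22.2, 48.0 and 31.2 CPM in SR9009, against 28.3, 55.7, 31.4, 72.8 and 38.8 CPM in Vehicle replicates 1 to 5. Its high libraries were those of the 10 genes, SR9009 replicate 4 and Vehicle replicates 2 and 4, and no comparison called it. Ccdc88c followed Fos within groups but averaged 9.45 CPM in SR9009, 9.07 CPM in Vehicle and 3.07 CPM in Chow, a rise of 2.97-fold in Vehicle over Chow (edgeR adjusted p = 1.71e-05). Srrm4, a splicing regulator best known from neurons, was at 8.60 CPM in SR9009, against 15.8 CPM in Vehicle with no overlap, and did not pass (edgeR adjusted p = 0.34).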

How the data were processed

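Liver RNA of 14 libraries was analysed from the deposited table of raw counts per gene. The authors' counts carry no normalization. Per the submitters' processing notes, the aligner was STAR 2.7.11b and the genome build GRCm39. The sources used here do not say how reads were assigned to genes, nor with which annotation or strand setting. Counts of genes that overlap are therefore uncertain. Symbols came from GENCODE M21 names and matched 51880 identifiers. The 10 genes and the related lists were chosen with earlier results of these data known. Named genes were the 10, up to 4 per list and comparison with the smallest adjusted p, and the 10 others most like Fos.

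Counts were tested with edgeR 4.0.16 in R 4.3.3 (TMM, filterByExpr with minimum count 10 and total 15, robust quasi-likelihood, all groups in 1 fit). Benjamini-Hochberg adjustment ran over 18181 genes, with a threshold of 0.05. Log2 CPM used a prior count of 2. Alternatives were DESeq2 1.42.0, limma-voom (limma 3.58.1), other scalings and filters, fits on the 2 groups at hand, a replicate block, a term for receptor gene class and leaving out each library. The pipeline was tested on simulated data. The labels number the libraries within a group and do not tie them to mice, so p-values measure the spread between these libraries, which may be technical in part. All 26 library pairs within groups differed by far more than sampling noise. Floors of 3 counts cover counting error only. A gene of the lists is not reported here by name.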

Additional observations from a re-analysis of the deposited data

Results flagged for a closer look

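Values of the 10 genes in a library were set against the other libraries of its group by Dixon's test, which marks a library far from its nearest neighbour. Of 30 combinations of gene and group 6 (20%) passed its 95% critical value, where chance gives about 1 in 20, and the genes are not independent of each other. SR9009 replicate 4 stood above the other SR9009 libraries for 3 genes: Fos at 14 CPM with the next value at 6.4 CPM, Btg2 at 48.6 CPM with the next at 28.5 CPM, and Zfp36 at 164 CPM with the next at 91.0 CPM. Dusp1 in Vehicle replicate 4 was at 107 CPM, with the next value at 40.8 CPM. Chow replicate 2 stood below the other Chow libraries for Jun, at 38.6 CPM with the next value at 104 CPM, and for Zfp36, at 237 CPM with the next at 311 CPM.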

How the results depend on the processing

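In SR9009 versus Vehicle, 0 of the 10 genes were called and all estimates stayed below 0 under the 9 alternatives and the 14 fits without a library. In Vehicle versus Chow the 2 calls became 1 with raw library totals and 3 with limma-voom, and ranged from 2 to 3 without a library. The sign changed with raw totals for Fos (0.33), Fosb (0.17), Junb (0.21) and Nr4a1 (0.43), with limma-voom for Btg2 (-0.03) and with the receptor class term for Nr4a1 (0.29). Without a library, log2 fold changes ran from -0.60 to 0.33 for Fos, -0.86 to 0.73 for Fosb, -0.08 to 0.38 for Jun, -1.02 to 0.89 for Nr4a1 and -0.12 to 0.41 for Btg2. In SR9009 versus Chow the 7 calls fell to 4 with limma-voom, raw totals, no filter on low counts or the receptor class term, and ranged from 4 to 9 without a library. Jun was at 0.15 with raw totals there. The causes were not tested. The labels do not say whether the replicate numbers pair mice across groups. Correlations of same-numbered deviations ran from -0.36 to 0.20, which cannot settle it. With the number as a replicate block the calls numbered 0, 2 and 4 in the order above. Depth limits Fosb, with as few as 3 counts in a library, and the relatives that are low in Chow, such as Egr2, Egr3, Nr4a3, Dusp2 and Hspa1a.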
